A study of Mus musculus with 36 samples.

Results

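Mouse cortical neurons that had received BDNF for 10 h were compared directly with neurons that had received KCl for 10 h, to ask which classes of genes told both stimuli apart at that time. The comparison rested on 4 RNA samples of the 36 samples in the series, picked by their group labels and not by any measured value (n = 2 libraries for BDNF and n = 2 for KCl, named A and B). All neurons were taken from CD-1 embryos at embryonic day 15, with the cortical tissue of all embryos pooled, and were used after 7 days in vitro. Before either stimulus they were kept silent for 2 h with 100 µM AP-5, which blocks NMDA receptors, and 1 µM TTX, which blocks voltage-gated sodium channels. BDNF (brain-derived neurotrophic factor) was then given at 10 ng/ml, and KCl was given at 55 mM by adding a potassium-rich salt buffer to the medium. Depolarisation and the buffer itself therefore cannot be told apart here. The 6 control RNA samples stayed in AP-5 and TTX for 3, 8 or 12 h in all and served as the common reference. Libraries of the same stimuli at 6 h and 1 h (n = 2 each) and the ATAC-seq libraries of 10 h (n = 2 each), which measure open chromatin, were used as further readouts.

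BDNF is a secreted growth factor that binds TrkB, a receptor tyrosine kinase, and activates ERK, PI3K and phospholipase C signalling. Raised extracellular KCl depolarises the membrane and lets calcium in through voltage-gated channels, chiefly of the L type, which engages calcium/calmodulin-dependent kinases, calcineurin and transcription factors such as CREB, MEF2 and NFAT. Both routes switch on immediate early genes within minutes. These genes encode transcription factors (Fos, Egr1, Npas4) and effectors (Arc), and they are followed by late genes whose products alter the synapse, the excitability and the secretion of the neuron.

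The 4 libraries held 10747884 and 15754036 reads (BDNF) and 10434221 and 11581139 reads (KCl), and log2 values of libraries A and B correlated across genes at 0.993 and 0.990. Values are normalised counts, that is reads per gene divided by the authors' size factor for the library, and differences are log2(BDNF + 1) minus log2(KCl + 1), so a positive difference means higher with BDNF. Calls were made with limma at a Benjamini-Hochberg adjusted p below 0.1 over all genes tested. Cell type markers gave similar sums for neurons and astrocytes. Summed levels were 80080 to 85010 (BDNF) and 83350 to 86330 (KCl) for 12 neuron markers, 39820 to 41660 and 39980 to 41200 for 20 astrocyte and radial glia markers, 6164 to 6507 and 7159 to 8005 for 10 oligodendrocyte lineage markers, 344.7 to 372.3 and 434.6 to 438.8 for 10 microglia markers and 4009 to 4186 and 4114 to 4206 for 11 endothelial, mural and meningeal markers. The oligodendrocyte and microglia sums were higher in both KCl libraries, and their part in the results was not tested. Of these lists, 5, 4, 2, 1 and 1 members were called higher with BDNF and 3, 2, 4, 0 and 2 with KCl. Single libraries moved some of these counts: the 5 neuron markers were 3 without BDNF library A, BDNF library B or KCl library B. The 4 and 2 oligodendrocyte markers were 2 without KCl library A and 1 without KCl library B, and without KCl library A the 2 astrocyte markers were 1 and the 1 microglial marker 2. The microglial marker P2ry12 and the endothelial markers Cldn5 and Flt1 were too low to be tested.

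At 10 h the stimuli left very different transcriptomes. Of 16209 genes tested, 7287 differed between BDNF and KCl (45.0%), of which 3752 were higher with BDNF (23.1%) and 3535 higher with KCl (21.8%). Counts of called members of any class are to be read beside these shares of 23.1% and 21.8%. At least 2-fold differences were found for 592 genes with BDNF higher (3.65%) and 635 with KCl higher (3.92%). In 587 of the 592 and 634 of the 635, values of the BDNF and KCl libraries did not overlap. Of all 16209 genes, 7253 (44.7%) were called and did not overlap. Genes picked for a large difference in these same libraries seldom overlap by construction, so this is a description only. Fewer cells of a type and less RNA per cell cannot be told apart in such bulk libraries.

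Set beside the controls, which both sides share, these large differences lay mostly on the KCl side. Over all genes, 21.1% were above and 19.5% below controls with BDNF, against 29.0% above and 28.2% below with KCl. Without BDNF library B, calls with BDNF went from 6583 to 3642. Among the 592 genes at least 2-fold higher with BDNF, 198 were above and 43 below controls with BDNF, whereas 26 were above and 503 below controls with KCl. Their median differences from controls were 0.16 (BDNF) and -1.15 (KCl). Among the 635 genes at least 2-fold higher with KCl, 522 were above and 4 below controls with KCl, and 43 were above and 296 below controls with BDNF, with medians of 1.02 and -0.42. A BDNF-high gene could thus be above controls with BDNF, below them with KCl, or both, and the plot of both differences from controls shows each kind.

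**Figure D1:**
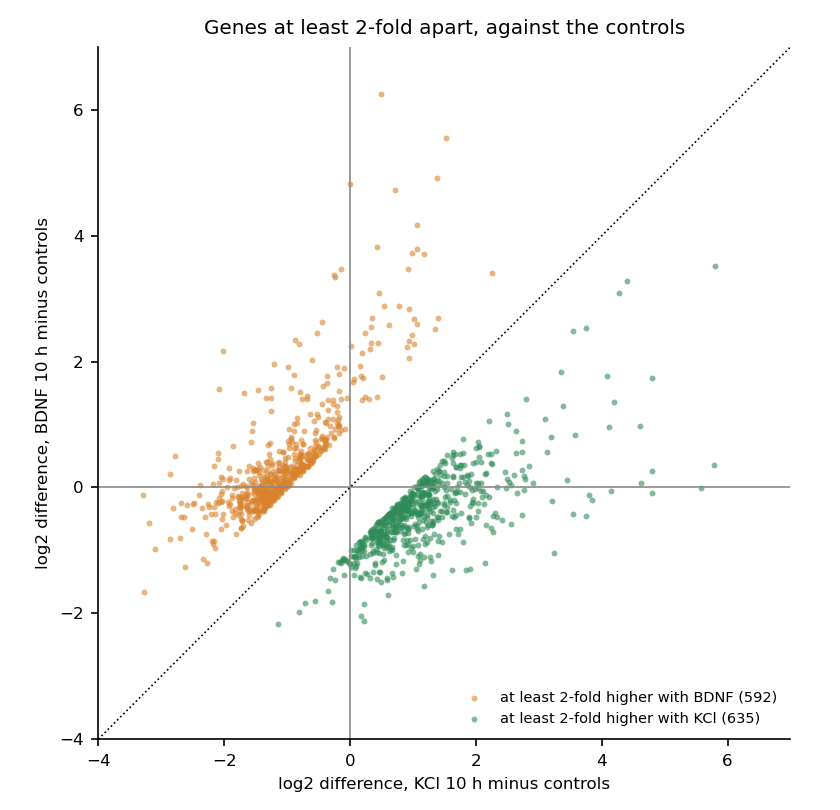
Genes at least 2-fold apart between the stimuli at 10 h, as log2 difference from the 6 controls with KCl (horizontal) and with BDNF (vertical); each point is a gene, the dotted diagonal marks equal values. Most of the 592 BDNF-higher genes sit left of the vertical zero line (503 were called below controls with KCl) and most of the 635 KCl-higher genes sit right of it (522 were called above controls with KCl).

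Both sets differed in make-up from the genes tested. Protein-coding genes made up 81.9% of the 592 and 89.0% of the 635, against 83.0% of all genes tested, and long intergenic or antisense RNAs made up 10.8%, 6.61% and 4.49%. Genes higher with KCl by at least 2-fold were longer, with a median span of 35.4 kb and a median exon length of 4790 bases, against 20.9 kb and 3710 bases for BDNF and 19.7 kb and 4040 bases over all genes. These shares and medians are descriptions without a test, since sets cut by a fold also depend on how strongly a gene is expressed.

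**Figure D2:**
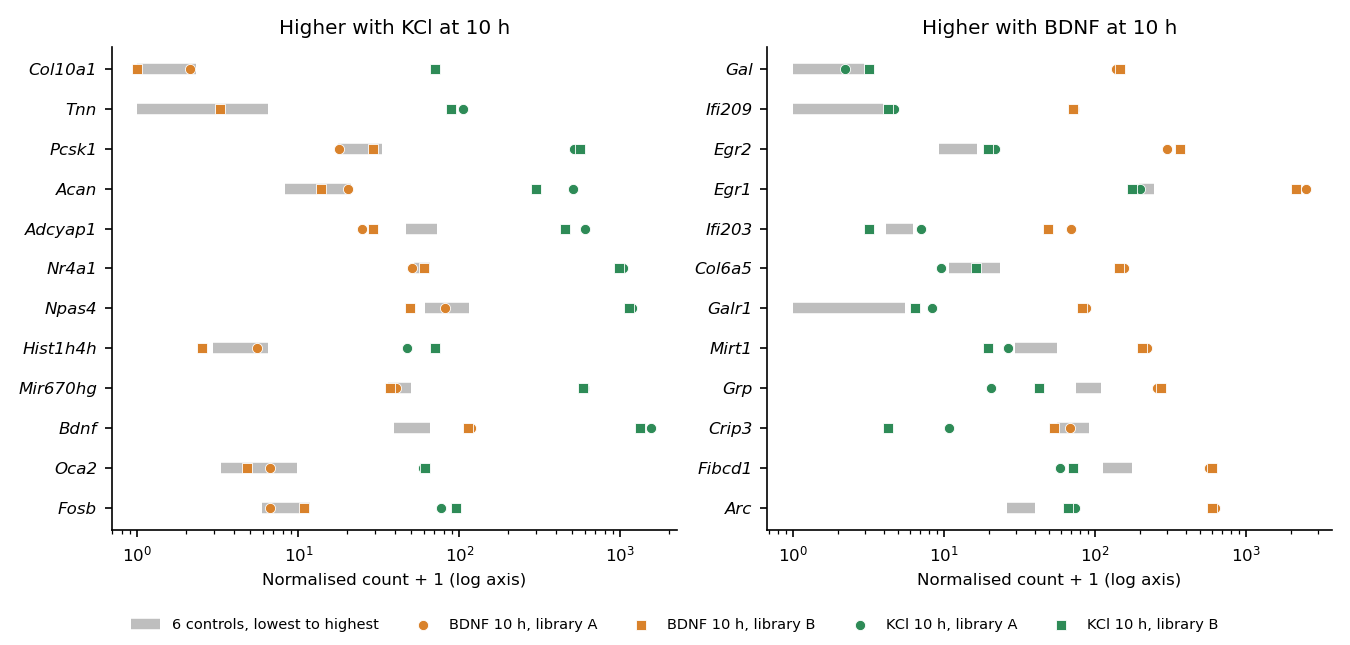
Normalised counts plus 1 (log axis) of the 12 genes with the largest difference in each direction at 10 h; circles and squares are libraries A and B, orange is BDNF, green is KCl, and grey bars span the 6 controls. In the left panel every KCl point lies to the right of the control bar and most BDNF points lie on or beside it. In the right panel the BDNF points lie to the right of the bars except for Crip3, and KCl points fall on either side of them.

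The 12 genes with the largest differences in each direction were of mixed kinds. With KCl higher they were Col10a1, Tnn, Pcsk1, Acan, Adcyap1, Nr4a1, Npas4, Hist1h4h, Mir670hg, Bdnf, Oca2 and Fosb. With BDNF higher they were Gal, Ifi209, Egr2, Egr1, Ifi203, Col6a5, Galr1, Mirt1, Grp, Crip3, Fibcd1 and Arc. Transcription factors, secreted proteins and peptides, and matrix proteins recur on both sides, with different members. For the histone gene Hist1h4h the values cover only RNA captured by its poly(A) tail, not total RNA.

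Immediate early transcription factors divided by family. Of 48 such factors tested, 21 were higher with KCl and 11 with BDNF (7 without BDNF library B), and the median difference was -0.23 beside 0.00 over all genes. The KCl share was above the 21.8% of all genes, and the BDNF share was near their 23.1%. The Egr zinc-finger factors leaned to BDNF, and the calcium-responsive factors, such as Npas4 and the Nr4a family, leaned to KCl.

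Among Egr factors and their corepressors, 3 of 6 were higher with BDNF and 1 with KCl. Egr1, a zinc-finger activator downstream of ERK, stood at 2514 and 2159 with BDNF, 197 and 175 with KCl and 223 ± 19.8 in controls (mean ± SD, n = 6). Its log2 difference was 3.64 ± 0.11 (SE; adjusted p = 1.56e-15), and KCl was called below controls (log2 -0.26, adjusted p = 0.0252), with KCl library A inside the range of the controls. Egr2 (chr10:67535475-67542188, mm10) was at 302 and 366 with BDNF, 20.8 and 18.5 with KCl and 11.8 ± 2.60 in controls, a 16.2-fold difference (4.01 ± 0.21, adjusted p = 7.2e-12). Nab2, a corepressor that binds Egr proteins and is itself an Egr target, was higher with BDNF (1.78 ± 0.20, adjusted p = 4.81e-07), and its paralogue Nab1 was higher with KCl (-0.70 ± 0.12, adjusted p = 4.71e-05). Egr3 and Egr4 did not pass the test: Egr3 was at 44.1 and 53.7 with BDNF against 52.6 and 39.2 with KCl, and Egr4 at 85.9 and 81.7 with BDNF against 50.1 and 50.1 with KCl. The family therefore did not behave as a unit at 10 h: Egr1, Egr2 and Nab2 were called higher with BDNF, and Nab1 with KCl. The missing call for Egr4 (log2 0.73), whose BDNF and KCl libraries did not overlap, does not show equal levels.

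The sequence before a start of Egr2 is shown because it holds a CArG box, the site of serum response factor (SRF), through which ERK signalling reaches immediate early genes. Positions here and for all sequences that follow are counted upstream of the RefSeq start. All bases come from RefSeq (GRCm38.p6, the build of mm10), and capitals mark the motif. For none of these sequences was a link between motif and direction tested. The window chr10:67537416-67537565 (plus strand) lies within the annotated span of Egr2, with the box outside its exons, and the box begins 72 bases before the start.

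Egr2: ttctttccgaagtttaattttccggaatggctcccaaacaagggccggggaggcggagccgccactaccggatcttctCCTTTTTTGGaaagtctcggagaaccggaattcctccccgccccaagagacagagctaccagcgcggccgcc

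Fos and Jun family members leaned to KCl, with 5 of 11 higher with KCl and 3 with BDNF (1 without BDNF library B or KCl library B). Fos was at 119 and 113 with BDNF against 948 and 995 with KCl beside 34.5 ± 7.28 in controls (-3.06 ± 0.18, adjusted p = 8.26e-11). Both stimuli thus held Fos above controls at 10 h, KCl by 8.34-fold more. Fosb was at 5.65 and 9.84 with BDNF against 75.8 and 94.8 with KCl (-3.34 ± 0.27, adjusted p = 3.27e-09), and Fosl2 was lower with BDNF by 2.85-fold (-1.51 ± 0.19, adjusted p = 1.77e-05). Jun showed the opposite sign (0.41 ± 0.10, adjusted p = 0.00181), with 1260.2 and 1294 with BDNF against 978 and 951 with KCl. Junb did not pass the test and was at 228 and 254 with BDNF against 259 and 232 with KCl. The AP-1 partners were therefore not shifted together.

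Of 16 calcium-responsive factors, 9 were higher with KCl and 2 with BDNF (1 without BDNF library A or BDNF library B). Npas4 (chr19:4984355-4990316), a factor induced by calcium entry and known for control of inhibitory synapses, was at 80.2 and 48.4 with BDNF, 1182 and 1132 with KCl and 87.2 ± 19.2 in controls (-4.19 ± 0.34, adjusted p = 6.24e-07). Nr4a1, an orphan nuclear receptor, was at 49.7 and 59.0 with BDNF, 1045 and 985 with KCl and 56.5 ± 5.15 in controls (-4.20 ± 0.14, adjusted p = 1.56e-15). In both genes the BDNF libraries were not called different from silenced neurons (adjusted p = 0.234 and 0.741), and the KCl libraries were over 10-fold above them. Nfil3, a bZIP repressor, was higher with KCl (-2.37 ± 0.12), as was Crem (-1.41 ± 0.16), which encodes CREB-related activators and repressors. Bhlhe40, a repressor of the clock, went against its class (1.17 ± 0.12), and among 15 Kruppel-like and other early factors Klf10 was higher with BDNF by 1.89 ± 0.12. Klf10 stood above controls with BDNF (log2 1.01, adjusted p = 4.23e-08) and below them with KCl (-0.89, adjusted p = 1.06e-07).

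Negative feedback on the ERK cascade leaned to BDNF by count but not by median. Of 30 feedback genes and receptor brakes tested, 13 were higher with BDNF and 9 with KCl, and the median difference was -0.12. MAP kinase phosphatases (DUSPs) dephosphorylate ERK, JNK and p38, and 5 of 10 were higher with BDNF and 3 with KCl (1 without BDNF library A, BDNF library B or KCl library B). Dusp6, a cytoplasmic phosphatase selective for ERK, was at 1528 and 1638 with BDNF, 479 and 381 with KCl and 224 ± 32.7 in controls (1.89 ± 0.14, adjusted p = 1.04e-09). Dusp4 was at 3560.3 and 3457 with BDNF against 1379 and 1062 with KCl (1.53 ± 0.20, adjusted p = 2.64e-05), and Dusp5, a nuclear phosphatase of ERK, was at 243 and 232 with BDNF against 81.9 and 66.4 with KCl (1.67 ± 0.22, adjusted p = 3.61e-06). All 3 were above controls with both stimuli, and more so with BDNF. Dusp2 was higher with BDNF by 1.63 ± 0.37, on low KCl values of 22.0 and 6.53.

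Dusp1, a nuclear phosphatase that acts on p38, JNK and ERK, went the other way. It was at 253 and 235 with BDNF, 557 and 632 with KCl and a mean of 267 in controls (-1.28 ± 0.12, adjusted p = 2.15e-08), and a difference from controls was called for KCl but not for BDNF (adjusted p = 0.317). The ETS factor Etv1 was also higher with KCl (-0.60 ± 0.10, adjusted p = 3.13e-05).

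Upstream sequences of Dusp5 and Dusp1 are set side by side because these paralogues moved in opposite directions and both windows hold a searched motif. A link between motif and direction was not tested. The Dusp5 window (chr19:53528995-53529108, plus strand) holds 2 adjoining CArG boxes, 82 and 72 bases before the start, and overlaps an exon of another annotated gene, AC137853.2. The Dusp1 window (chr17:26508520-26508672, minus strand) holds a full CRE (TGACGTCA), the site of CREB, 143 bases before the start. It lies within the annotated span of Dusp1, with the CRE outside its exons.

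Dusp5: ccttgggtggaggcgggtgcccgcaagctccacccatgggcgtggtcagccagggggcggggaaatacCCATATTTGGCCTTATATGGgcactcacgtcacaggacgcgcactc

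Dusp1: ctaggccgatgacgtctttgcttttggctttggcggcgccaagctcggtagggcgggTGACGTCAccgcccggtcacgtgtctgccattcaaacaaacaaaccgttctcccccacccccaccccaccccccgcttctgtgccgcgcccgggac

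Neurotrophins and other growth factors were unequal. Of 8 ligands tested, 4 were higher with KCl and 2 with BDNF. Bdnf itself (chr2:109674700-109727007) was at 118 and 113 with BDNF, 1547 and 1318 with KCl and 58.7 ± 10.3 in controls, a 12.3-fold difference (-3.62 ± 0.23, adjusted p = 1.19e-09). Bdnf transcripts of neurons given BDNF were far below those with KCl, though above controls (log2 0.98, adjusted p = 0.000698). Ntf3, which encodes neurotrophin-3, was at 18.1 and 23.5 with BDNF against 103 and 117 with KCl (-2.35 ± 0.22, adjusted p = 3.72e-08). Here the KCl libraries were near the controls and the BDNF libraries were below them (log2 -2.13, adjusted p = 1.28e-08). Igf1, insulin-like growth factor, was higher with KCl (-1.07 ± 0.18, adjusted p = 0.000199).

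Among 11 receptors and adaptors, 4 were higher with KCl and 1 with BDNF (0 without KCl library B). Ntrk2, the gene of TrkB, was at 4761 and 4537 with BDNF, 8556 and 8117 with KCl and 6909.7 ± 707 in controls (-0.84 ± 0.10, adjusted p = 2.34e-06). It lay below controls with BDNF (log2 -0.57, adjusted p = 3.87e-05) and above them with KCl (0.28, adjusted p = 0.0107). The neurotrophin and the gene of its receptor were therefore both lower with added BDNF than with KCl.

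Neuropeptides and the enzymes that process them held some of the widest gaps. Of 33 genes tested, 15 were higher with KCl and 6 with BDNF, with a median difference of -0.30. Pcsk1 (chr13:75089826-75134861), the prohormone convertase that cuts peptide precursors, was at 16.95 and 28.0 with BDNF, 517 and 562 with KCl and 21.4 ± 5.74 in controls (-4.57 ± 0.29, adjusted p = 2.8e-10). Adcyap1, the precursor of PACAP, was at 23.7 and 28.0 with BDNF against 599 and 454 with KCl beside 55.0 ± 10.2 in controls (-4.29 ± 0.29, adjusted p = 5.09e-10). In Adcyap1 the BDNF libraries were below the controls, while in Pcsk1 they were not called different from them (adjusted p = 0.865). Cartpt, another peptide precursor, was at 13.6 and 17.4 with BDNF against 119.8 and 113 with KCl (-2.84 ± 0.55, adjusted p = 0.000404). All 6 processing enzymes were called, 5 of them higher with KCl.

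The peptides that were higher with BDNF were fewer. Gal (chr19:3409915-3414544), the galanin precursor, had the largest fitted difference of all genes tested, with 138 and 147 with BDNF against 1.22 and 2.18 with KCl (5.75 ± 0.50, adjusted p = 9.75e-09). Only 1 and 2 reads lay behind the KCl values, so the ratio of 82.9 had a 95% counting interval of 28.1 to 404. Galr1, a galanin receptor, was at 87.0 and 81.7 with BDNF against 7.33 and 5.45 with KCl (3.54 ± 0.58, adjusted p = 5.18e-05), so ligand and receptor were both BDNF-high. Grp, the precursor of gastrin-releasing peptide, was at 259 and 275 with BDNF, 19.6 and 41.4 with KCl and 94.3 ± 12.9 in controls (3.18 ± 0.24, adjusted p = 1.65e-09). It lay above the controls with BDNF and below them with KCl. Crhbp, which binds corticotropin-releasing hormone, was higher with BDNF (1.16 ± 0.27, adjusted p = 0.00185). Vgf, a granin-related precursor often used as a BDNF target, did not pass the test (0.59 ± 0.36, adjusted p = 0.223). It was at 9935 and 9743 with BDNF against 7498 and 5672 with KCl, both far above the controls at 362 ± 106. Its BDNF and KCl libraries did not overlap, and the missing call does not show equal levels.

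The Pcsk1 window (chr13:75089707-75089825, plus strand) is shown because a full CRE sits 78 bases before the start of this KCl-high gene. The window lies outside the annotated span of the gene, and a link between the CRE and the direction was not tested.

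Pcsk1: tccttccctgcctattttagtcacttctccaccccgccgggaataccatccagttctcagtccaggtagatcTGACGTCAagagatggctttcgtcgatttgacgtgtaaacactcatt

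Effectors of synaptic plasticity did not follow a single stimulus. Of 21 tested, 5 were higher with BDNF, a share near the 23.1% of all genes, and 8 with KCl, above the 21.8%. Arc, which drives removal of AMPA receptors from synapses, was at 621 and 596 with BDNF, 73.3 and 65.3 with KCl and 33.1 ± 6.09 in controls (3.12 ± 0.19, adjusted p = 4.91e-11). Nptx1, a secreted pentraxin that clusters AMPA receptors, was also higher with BDNF (1225 and 1157 against 631 and 735, 0.81 ± 0.13, adjusted p = 5.04e-05). Rgs4 and Rgs2, which shut off G protein signalling, were higher with KCl (-1.39 ± 0.19 and -0.78 ± 0.15), as was Gpr3, a constitutively active receptor coupled to cAMP (-1.53 ± 0.43, adjusted p = 0.0125). Rgs4 stood at 1052 and 1136 with BDNF against 2874 and 2857 with KCl, and both stimuli held it above controls.

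Of 22 glutamate receptor genes, 6 were higher with BDNF and 5 with KCl, shares near the 23.1% and 21.8% of all genes. The AMPA receptor subunit Gria1 was at 7681 and 7426 with BDNF, 4029.9 and 3448 with KCl and 5646 ± 565 in controls (1.02 ± 0.11, adjusted p = 4.58e-07). Gria3 showed the same order, at 1058 and 1064 with BDNF against 513 and 511 with KCl (1.05 ± 0.10, adjusted p = 6.13e-08). Both subunits lay above controls with BDNF and below them with KCl. Of the metabotropic receptors, Grm4 was BDNF-high (519 and 487 against 155 and 98.0, 2.02 ± 0.15), whereas Grm2 (196 and 147 against 770.0 and 546, -1.93 ± 0.15) and Grm3 (84.8 and 81.0 against 324 and 262, -1.80 ± 0.16) were KCl-high. Grin1, the obligatory NMDA receptor subunit, was the only called member of 6 NMDA receptor genes (another was called higher with BDNF without KCl library A) and was higher with KCl (-0.69 ± 0.16, adjusted p = 0.00299).

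GABA and glycine receptors were nearly all on the KCl side. Of 17 receptor subunits tested, 14 were higher with KCl and 1 with BDNF (0 without BDNF library A or KCl library B), against 21.8% and 23.1% over all genes, with a median difference of -0.57. Gabrd, the subunit of extrasynaptic GABA-A receptors, was at 12.4 and 15.1 with BDNF, 78.2 and 43.6 with KCl and 32.8 ± 8.16 in controls (-2.01 ± 0.31, adjusted p = 2.29e-05). Gabra4, its usual partner, was at 530.1 and 493 with BDNF against 1485 and 1403 with KCl (-1.50 ± 0.09, adjusted p = 5.99e-11), and Gabrb1 was at 184 and 167 with BDNF against 709 and 606 with KCl (-1.89 ± 0.13, adjusted p = 3.96e-10). KCl values lay above the controls in 14 of the 17 receptor genes, BDNF values in 4. Slc6a11, the GABA transporter GAT3, went the other way (2619 and 2572 with BDNF, 1292 and 1059.7 with KCl, 1.15 ± 0.09). Gad1, which makes GABA, was higher with KCl (-0.48 ± 0.13), and the summed level of 19 interneuron markers was 27120 to 27760 with BDNF and 29520 to 32710 with KCl. The part of that shift in the receptor result was not tested.

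Ion channels showed many calls in both directions. Of 75 potassium channel genes, 32 were higher with KCl and 20 with BDNF. The KCl share was above the 21.8% of all genes, and the BDNF share was near their 23.1%. Kcnj3 and Kcnj6, subunits of the inward rectifier opened by G proteins, were both KCl-high. Kcnj3 was at 298 and 258 with BDNF against 1491 and 1379 with KCl (-2.37 ± 0.12, adjusted p = 2.18e-12), and Kcnj6 at 32.8 and 35.6 with BDNF against 159 and 173 with KCl (-2.25 ± 0.23, adjusted p = 1.34e-07). The BDNF libraries were not called different from controls in either (adjusted p = 0.241 and 0.581). Kcnh8 and Kcnh4 were also KCl-high (-2.07 ± 0.22 and -1.93 ± 0.16). Kcnu1 had the largest BDNF-high difference of these genes, at 38.4 and 29.5 with BDNF against 6.11 and 4.36 with KCl (2.49 ± 0.33, adjusted p = 3.45e-06), and Kcns1, a modulatory subunit, was higher by 1.25 ± 0.27.

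Scn1a, the sodium channel Nav1.1, had the largest difference of 10 sodium channel genes. It was at 268 and 229 with BDNF, 1683 and 1666 with KCl and 377 ± 38.9 in controls, a 6.73-fold difference (-2.75 ± 0.13, adjusted p = 1.47e-12). It moved in both directions from controls, up with KCl and down with BDNF. In all, 4 of the 10 sodium channel genes were higher with KCl and 1 with BDNF (0 without BDNF library B or KCl library B).

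Among 8 calcium channel pore subunits, Cacna1d, the L-type channel Cav1.3, was the only one higher with BDNF (1 of 2 without BDNF library B) and stood at 579 and 510.1 with BDNF, 271 and 194 with KCl and 586 ± 51.3 in controls (1.24 ± 0.15, adjusted p = 3.32e-06). Its KCl libraries were below the controls, and its BDNF libraries were not called different from them. Cacna1c, the other main L-type channel of neurons, did not pass the test (0.22 ± 0.12, adjusted p = 0.152). Cacna1g was higher with KCl (-0.43 ± 0.11). Rem2, a GTPase of the RGK family that holds back calcium channels, was at 65.6 and 62.8 with BDNF, 317 and 402 with KCl and 111 ± 28.8 in controls (-2.46 ± 0.25, adjusted p = 8.67e-07). Gem, of the same family, was higher with KCl (-0.99 ± 0.23), and Rrad was not called at 9.04 and 16.6 with BDNF against 11.001 and 12.0 with KCl.

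Carriers that clear ions also differed. Of 18 sodium pump and chloride cotransporter genes, 9 were higher with KCl and 5 with BDNF (3 without BDNF library A or KCl library B). The sodium-calcium-potassium exchangers Slc24a4 (-2.16 ± 0.21) and Slc24a3 (1.46 ± 0.12) had opposite signs.

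Extracellular matrix genes leaned to KCl, with 16 of 34 higher with KCl (9 without BDNF library B) and 2 with BDNF, and a median of -0.31. Acan (chr7:79053483-79115099), aggrecan, the core proteoglycan of perineuronal nets, was at 19.2 and 12.9 with BDNF, 507 and 297 with KCl and 13.6 ± 4.39 in controls (-4.54 ± 0.35, adjusted p = 4.9e-09). Hapln1, the link protein that ties aggrecan to hyaluronan, was at 83.6 and 96.9 with BDNF against 592 and 426 with KCl (-2.47 ± 0.18, adjusted p = 6.08e-10). The protease Adamts1, which cuts aggrecan, was KCl-high as well (-1.76 ± 0.19, adjusted p = 1.39e-06). The matrix protein, its linker and its protease were therefore higher together. Serpinb2, an inhibitor of plasminogen activators, was the largest exception, at 58.8 and 49.9 with BDNF against 14.7 and 12.0 with KCl (1.95 ± 0.28, adjusted p = 9.98e-06).

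Matrix genes outside that list held the extremes. Col10a1, a collagen chain known from growing cartilage, was at 1.13 and 0 with BDNF against 69.7 and 69.7 with KCl, with 1 and 0 reads behind the BDNF values (ratio 154, 95% counting interval 27.1 to 6120). Tnn, tenascin-N, was at 2.26 and 2.27 with BDNF against 104 and 88.2 with KCl (-4.89 ± 0.66, adjusted p = 4.82e-06). Col6a5 took the other side at 155 and 145 with BDNF against 8.56 and 15.2 with KCl (3.60 ± 0.34, adjusted p = 3.16e-08), and so did Fibcd1, a membrane receptor that binds chitin and glycosaminoglycans, at 569 and 593 with BDNF against 57.4 and 70.8 with KCl (3.17 ± 0.16, adjusted p = 2.18e-12). Fibcd1 was above controls with BDNF (log2 1.96, adjusted p = 2.51e-10) and below them with KCl (-1.21, adjusted p = 1.22e-07).

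Surface molecules that shape contacts were mostly higher with KCl. Of 23 clustered protocadherins tested, 20 were higher with KCl (11 without BDNF library B) and 0 with BDNF, although differences were small (median -0.45, largest -0.88 for Pcdhb16). Clustered protocadherins give neurons a surface identity for self-recognition. Their exons share sequence within a cluster, so counts of single members are less certain. Of 27 synaptic adhesion genes, 15 were higher with KCl and 5 with BDNF. Cbln1, a secreted organiser that bridges neurexins and glutamate delta receptors, was the widest BDNF-high exception at 1773 and 1843 with BDNF, 331 and 297 with KCl and 605 ± 41.6 in controls (2.52 ± 0.10, adjusted p = 3.82e-14). Lrrtm4 (-1.45 ± 0.16) and Slitrk4 (-1.39 ± 0.14), postsynaptic organisers, were KCl-high, and Nlgn3, a neuroligin, was BDNF-high (0.98 ± 0.15).

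Of 67 axon guidance genes, 29 were higher with KCl and 10 with BDNF, against 21.8% and 23.1% of all genes. The secreted repellent Sema3d (-1.83 ± 0.27) and the receptor Epha10 (-1.66 ± 0.24) were KCl-high, and the netrin receptor Unc5b (330.0 and 352 with BDNF, 117 and 109 with KCl, 1.58 ± 0.15) was BDNF-high. In the presynaptic release machinery, 14 of 35 were higher with KCl and 6 with BDNF. Snap25 and Syt1, which serve vesicle fusion, were higher with KCl (differences of -0.59 ± 0.10 and -0.59 ± 0.12), and Doc2b, a calcium sensor of spontaneous release, was higher with BDNF by 1.51 ± 0.17. Neurofilaments stood out among neuron markers, with Nefl at 1847 and 1936 with BDNF against 733 and 845 with KCl (1.26 ± 0.11, adjusted p = 1.01e-08) and Nefm higher with BDNF by 1.13 ± 0.17.

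Of 34 genes of glycolysis, glucose uptake and the hypoxia response, 10 were higher with BDNF and 11 with KCl (7 without BDNF library A, BDNF library B or KCl library A), with a median of -0.01. Cholesterol synthesis and transport was KCl-high, with 21 of 34 genes higher with KCl and 2 with BDNF (1 without BDNF library A, 0 without KCl library B) and a median of -0.40. Over all genes, 23.1% were higher with BDNF and 21.8% with KCl. Insig1, a sensor that retains SREBP in the ER, was at 2923 and 3163 with BDNF against 5956 and 5931 with KCl (-0.97 ± 0.07, adjusted p = 4.09e-10). Of 20 synthesis genes, 19 were above controls with BDNF and 19 with KCl, so this was a difference of degree.

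Chaperones of the endoplasmic reticulum were BDNF-high. Of 25 chaperones and unfolded protein response genes, 16 were higher with BDNF and 2 with KCl, with a median of 0.45. Dnajb11, a cochaperone of BiP, was at 1736 and 1793 with BDNF, 1017 and 880.0 with KCl and 909 ± 51.3 in controls (0.90 ± 0.08, adjusted p = 2.86e-08). Hsp90b1, the ER member of the HSP90 family, was at 4479 and 5064 with BDNF, 3061 and 2719.5 with KCl and 3547 ± 240.1 in controls (0.72 ± 0.09, adjusted p = 1.19e-06), above controls with BDNF and below them with KCl. Manf and Sdf2l1, a secreted survival factor and a chaperone complex member, followed (0.67 ± 0.09 and 0.72 ± 0.15). Herpud1, which serves degradation of ER proteins, went against its class (454 and 388 with BDNF, 705 and 770.0 with KCl, -0.81 ± 0.10, adjusted p = 2.29e-06).

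The Hsp90b1 window (chr10:86705510-86705664, minus strand, upstream of the gene) is shown for its 2 ER stress response elements (ERSE, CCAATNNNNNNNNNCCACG), the sites of ATF6 and XBP1, which begin 212 and 107 bases before the start. The second reads on the other strand. ERSE matches were found in 9 of 49 upstream windows of the ER list (18.4%) and in 0.128% of all 14051 windows searched.

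Hsp90b1: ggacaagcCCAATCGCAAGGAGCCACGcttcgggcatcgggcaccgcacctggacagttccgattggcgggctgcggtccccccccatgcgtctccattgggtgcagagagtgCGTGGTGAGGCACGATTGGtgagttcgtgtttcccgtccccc

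Proteasome subunits were higher with BDNF in 14 of 35 (7 without BDNF library B) and higher with KCl in 0, with a median of 0.17 and Psmd14 the widest (0.65 ± 0.10). Nuclear genes of the respiratory chain were higher with BDNF in 20 of 79 (8 and 9 without BDNF library B or KCl library B) and with KCl in 3 (1 without BDNF library A, 5 without BDNF library B), the first a share near the 23.1% of all genes. Ribosomal proteins were higher with KCl in 15 of 85 (6 without BDNF library A, 4 without KCl library B) and with BDNF in 7 (3 without BDNF library B), both below the background. Of 360 Zfp genes, which encode zinc-finger proteins, 87 were higher with BDNF and 48 with KCl. Both counts fell when a single library was left out, as did those over all genes. The BDNF share was near the 23.1% of all genes, and the KCl share was below the 21.8%. The mitochondrial ribosomal RNAs mt-Rnr1 and mt-Rnr2 were higher with KCl (-1.18 ± 0.22 and -0.94 ± 0.23), the only members of 18 mitochondrial transcripts called so (13 without BDNF library A), while mitochondrial transcripts made up 4.14% and 2.70% of reads in the BDNF libraries and 3.44% and 3.96% in the KCl libraries.

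Genes of osmotic and amino acid supply were KCl-high. Of 11 osmotic response genes, 5 were higher with KCl and 1 with BDNF (2 without KCl library A). Of 12 amino acid carriers, 7 were higher with KCl and 2 with BDNF (1 without BDNF library A, BDNF library B or KCl library B). Slc38a2, a carrier for neutral amino acids that responds to hypertonicity, was at 2060.5 and 2099 with BDNF against 5519 and 6672 with KCl (-1.54 ± 0.09, adjusted p = 2.88e-11). Slc6a6, the taurine transporter, was at 2179 and 1989 with BDNF against 5400.1 and 5969 with KCl (-1.45 ± 0.08, adjusted p = 1.27e-11), and Slc7a8 at 231 and 260.3 with BDNF against 1156 and 1066 with KCl (-2.18 ± 0.11, adjusted p = 2.15e-12). Akr1b3, aldose reductase, which makes the osmolyte sorbitol, did not follow and was higher with BDNF (0.80 ± 0.15, adjusted p = 0.00026).

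Growth brakes that FoxO factors and glucose sensing control went both ways, 7 of 21 higher with BDNF and 8 with KCl. Both shares were above the 23.1% and 21.8% of all genes. Arrdc3 and Txnip, arrestin-like proteins that draw transporters and receptors from the surface, were both BDNF-high. Arrdc3 was at 3036 and 3210.3 with BDNF against 648 and 644 with KCl and 3417 ± 273 in controls, and Txnip at 258 and 251 with BDNF against 84.3 and 117 with KCl and 615 ± 51.0 in controls. Arrdc3 was not called different from controls with BDNF (adjusted p = 0.218) and Txnip was below controls with both. Their differences were 2.27 ± 0.09 (adjusted p = 1.12e-13) and 1.35 ± 0.20 (adjusted p = 2.51e-05). Cell death genes were also divided: the BH3 proteins Hrk (1096 and 1267 with BDNF, 430.2 and 415 with KCl, 1.48 ± 0.10) and Bcl2l11 (1.01 ± 0.13) were BDNF-high and Bmf (-0.91 ± 0.20) KCl-high. Proliferation markers were higher with BDNF in 8 of 21 and with KCl in 0, with Mcm3 at 398 and 443 with BDNF against 243 and 247 with KCl (0.77 ± 0.13). With KCl, 20 of these 21 lay below controls, and with BDNF 13.

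Chromatin and transcriptional control genes were led by class IIa histone deacetylases, corepressors of MEF2 that leave the nucleus on calcium entry. Hdac9 (chr12:34047580-34917095) was at 299.5 and 246 with BDNF, 1943 and 1856 with KCl and 281 ± 23.6 in controls (-2.80 ± 0.12, adjusted p = 1.12e-13). Hdac5 was at 962 and 932 with BDNF against 2463 and 2324 with KCl (-1.34 ± 0.12, adjusted p = 1.46e-08), and Hdac7 was KCl-high (-0.55 ± 0.13). Of 15 deacetylases, 8 were higher with KCl (5 without KCl library A) and 4 with BDNF (1 without KCl library B), the latter including Sirt1 (0.68 ± 0.10). CREB coactivators, phosphodiesterases and salt-inducible kinases were KCl-high in 11 of 19 and BDNF-high in 2. Pde1a, a phosphodiesterase that calmodulin activates, was a BDNF-high exception at 1807 and 1747 with BDNF, 402 and 358 with KCl (2.22 ± 0.09, adjusted p = 4.61e-14).

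Clock genes and secreted signals followed, with counts to be set beside 21.8% KCl-higher and 23.1% BDNF-higher calls over all genes. Of 19 clock genes, 8 were higher with KCl and 3 with BDNF (1 without BDNF library A and 1 by DESeq2), with Per1, a CREB target, at 374 and 336 with BDNF against 1217 and 1077 with KCl (-1.69 ± 0.12, adjusted p = 2.77e-10). Of 35 Wnt pathway genes, 14 were KCl-high and 6 BDNF-high, and Dkk2, a Wnt antagonist, was at 33.9 and 31.8 with BDNF against 123 and 127 with KCl (-1.90 ± 0.52, adjusted p = 0.00982). In the activin family, Inhba, the activin A subunit, was at 38.4 and 34.1 with BDNF against 119 and 91.5 with KCl (-1.50 ± 0.23, adjusted p = 2.14e-05), and Acvr1c, a type I receptor, was KCl-high (-2.17 ± 0.46). Fst, follistatin, which binds and blocks activin, had the opposite sign at 163 and 197 with BDNF against 67.2 and 68.6 with KCl (1.39 ± 0.17, adjusted p = 1.83e-06).

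**Figure D3:**
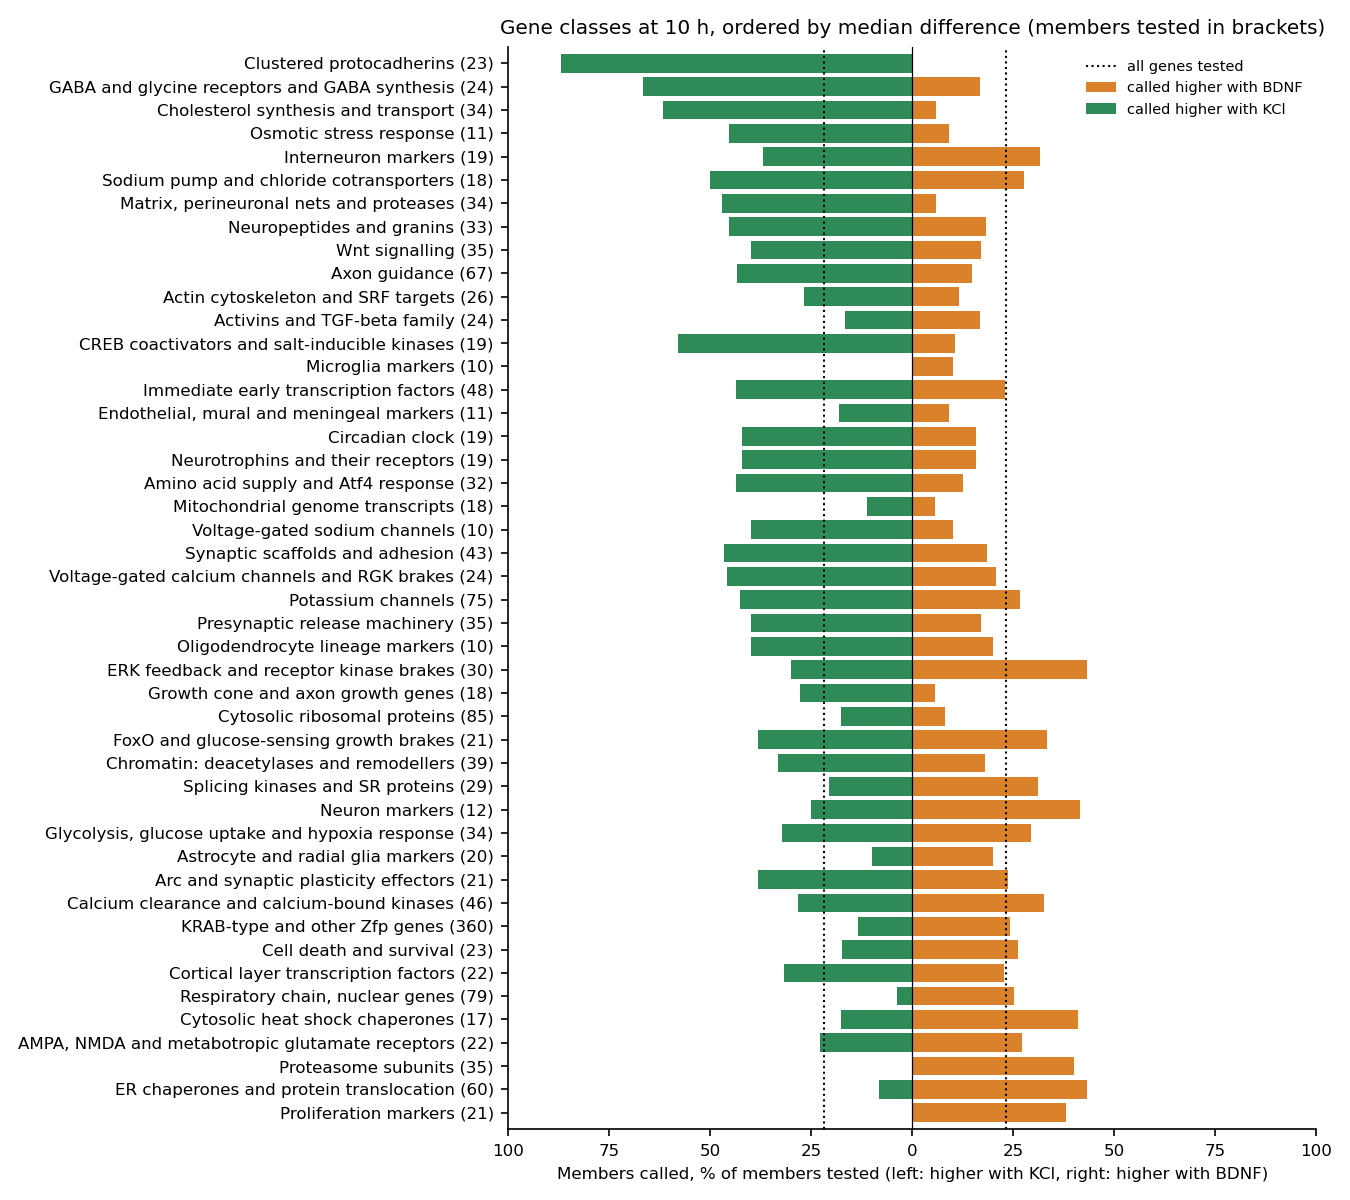
Share of tested members of each gene class called higher with BDNF (orange, right) or higher with KCl (green, left) at 10 h, ordered by median difference, with the number tested in brackets; dotted lines mark 23.1% and 21.8%, the shares over all 16209 genes. Protocadherins, GABA receptors and cholesterol genes reach far past the KCl line, and ER chaperones and proteasome subunits past the BDNF line.

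The same contrast in the libraries of 6 h asked whether these differences were already there. The KCl libraries of 6 h agreed least of all groups, with a correlation of 0.985. The top 100 genes took 14.6% of reads in KCl library A of 6 h and 17.8% in library B. Of 16209 genes tested, 9293 differed between the stimuli at 6 h (57.3%), with 4792 higher with BDNF and 4501 with KCl. At 1 h 6936 differed (42.8%), with 3986 higher with BDNF and 2950 with KCl. Of the 592 genes at least 2-fold higher with BDNF at 10 h, 504 were called the same way at 6 h (85.1%) and 146 at 1 h (24.7%). Of the 635 KCl-higher ones, 537 (84.6%) and 228 (35.9%) were. At 6 h both shares were above those of calls in the same direction over all genes. At 1 h the 24.7% was near the share of BDNF-higher calls over all genes, and the 35.9% was above that of KCl-higher calls. In the reverse reading, the 3752 genes called BDNF-higher at 10 h held 62.0% of the genes called so at 6 h. The change of the difference was called for 1242 genes between 6 and 10 h (7.66%) and for 6835 between 1 and 10 h (42.2%). The first count varied most with the KCl libraries named A, from 333 when the library of 10 h was left out to 3153 when that of 6 h was.

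Direction at 10 h was not always that of 1 h. Of 3535 genes called KCl-higher at 10 h, 628 (17.8%) were called BDNF-higher at 1 h and 1122 (31.7%) KCl-higher. Of 3752 genes called BDNF-higher at 10 h, 477 (12.7%) were called KCl-higher at 1 h and 1196 (31.9%) BDNF-higher. Both shares of opposite calls lay below those over all 16209 genes at 1 h (3986 BDNF-higher, 2950 KCl-higher). Acan was at 2.27 ± 0.35 at 1 h, -3.46 ± 0.35 at 6 h and -4.54 ± 0.35 at 10 h (change -6.81, adjusted p = 5.3e-09). Rgs4 (2.33 at 1 h, -1.39 at 10 h), Rem2 (1.21, -2.46), Inhba (1.72, -1.50), Acvr1c (3.10, -2.17) and Gpr3 (3.00, -1.53) shared this order. Pde1a and Fst turned the other way, from -0.64 and -0.48 at 1 h to 2.22 and 1.39 at 10 h. Egr3 was 3.64 ± 0.28 at 1 h (adjusted p = 9.66e-10) and 0.10 ± 0.28 at 10 h. Other differences arose only later: Gal was 0.98 ± 0.50 at 1 h and 4.82 ± 0.50 at 6 h, and Fibcd1 0.08 ± 0.16 and 2.40 ± 0.16. Nr4a1, Npas4, Egr1, Egr2 and Arc kept their direction at all 3 times.

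**Figure D4:**
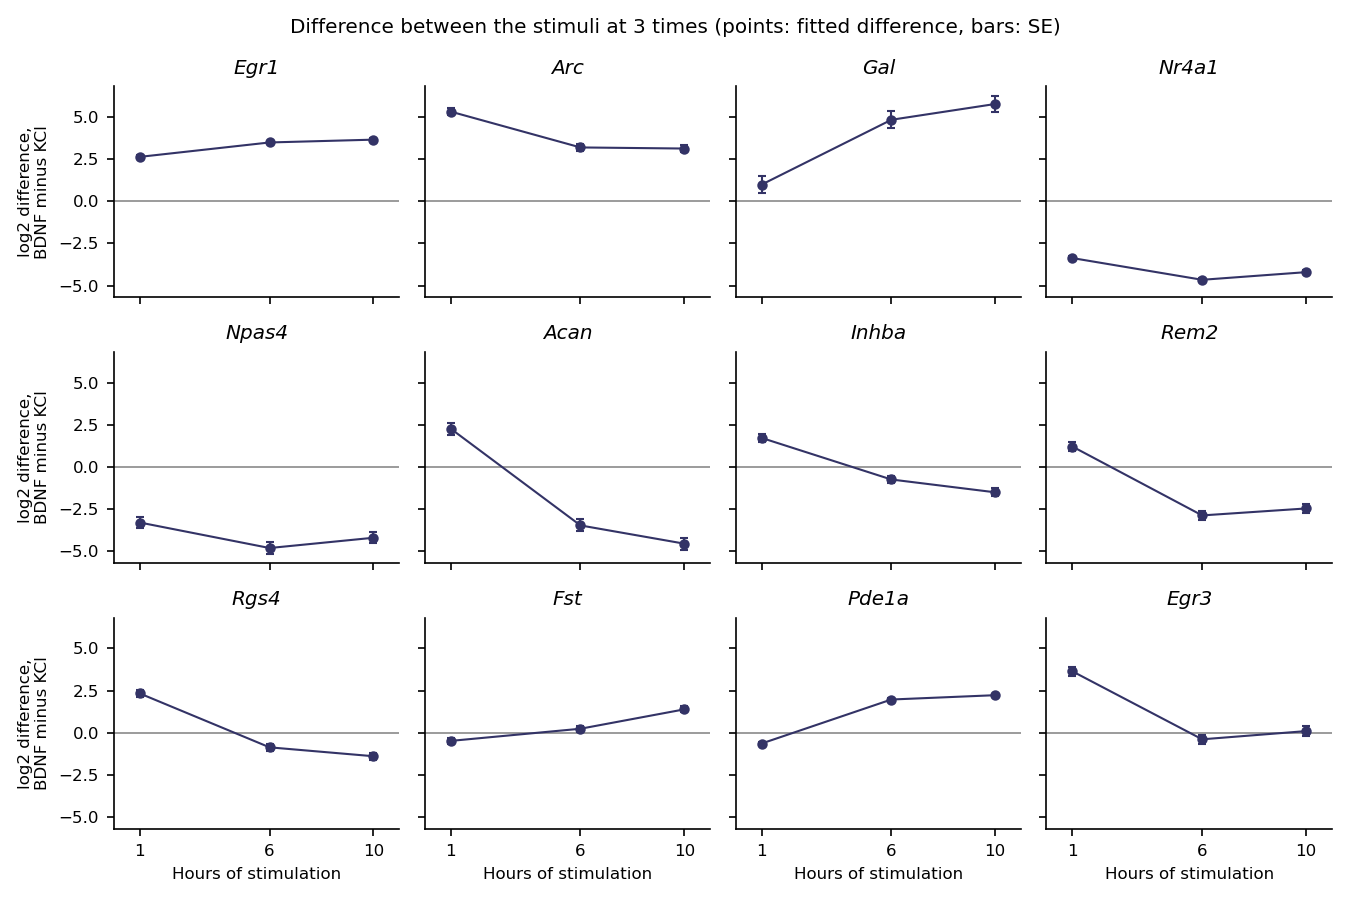
Fitted log2 difference between BDNF and KCl (vertical) at 1, 6 and 10 h of stimulation (horizontal) for 12 genes, with SE bars. Acan, Inhba, Rem2 and Rgs4 cross zero from BDNF-higher at 1 h to KCl-higher at 10 h, Pde1a and Fst cross the other way, and Egr1, Arc, Nr4a1 and Npas4 do not cross.

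Chromatin accessibility at 10 h was compared between the stimuli with 2.02 and 2.78 M reads in peaks (BDNF) and 2.99 and 3.21 M (KCl). This was less depth than in RNA, and the test was another, so the shares of calls were not compared with those of RNA. Of 56383 ATAC peaks, 604 were more open with BDNF (1.07%) and 457 with KCl (0.811%) by edgeR's quasi-likelihood test at an adjusted p below 0.1, with LOESS offsets. The share of BDNF-higher calls was 56.9%, and it was 67.4%, 68.1% and 72.7% with TMM scaling, size factors and DESeq2. Leaving out single libraries gave 159 to 616 peaks, with 253 and 616 without the first or second BDNF column and 542 and 159 without the first or second KCl column. Among genes at least 2-fold higher with BDNF, 4.05% had a BDNF-higher peak and 1.01% a KCl-higher peak within 50 kb of a start, against 4.22% and 2.82% of all genes. Among genes at least 2-fold higher with KCl, the shares were 3.78% and 3.94%. Apart from the lower share of KCl-higher peaks near BDNF-higher genes, these shares lay near those of all genes, and most members had no called peak nearby.

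Some members did have one, and the peaks given here are examples only. Of the 635 KCl-higher genes, 24 had a BDNF-higher peak within 50 kb and 25 a KCl-higher peak. Of the 592 BDNF-higher genes, 24 had a BDNF-higher peak and 6 a KCl-higher peak. A peak 2.61 kb from the Npas4 start (chr19:4992925-4993245) held 8.29 and 20.9 scaled reads with BDNF and 52.2 and 54.8 with KCl (log2 -1.80 ± 0.42, adjusted p = 0.0111). The promoter peak of Serpinb2 (chr1:107511142-107511597) held 67.3 and 98.9 with BDNF and 23.8 and 29.6 with KCl (1.64 ± 0.35, adjusted p = 0.00457). A peak 12.1 kb from Dusp6 was more open with BDNF (1.86 ± 0.55, adjusted p = 0.0670), as was a peak 35.8 kb from a start of Gria1 (2.44 ± 0.61, adjusted p = 0.0221). Their directions were those of the RNA. A peak 31.9 kb from Inhba was more open with BDNF (2.33 ± 0.61, adjusted p = 0.0315), against the direction of its RNA at 10 h.

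RefSeq upstream windows were found for 10962 of the 16209 genes and searched on both strands for 7 motifs in the 250 bases before each start, in 504 windows of BDNF-higher genes and 564 windows of KCl-higher genes (at least 2-fold). The CRE (TGACGTCA) was in 0.992% of the former and 4.08% of the latter, against 2.55% of all windows. A loose form of the MEF2 site (CTANNNNTAG, where MEF2 itself takes only A or T in the middle) was in 2.78%, 4.61% and 2.75%, AP-1 sites (TGACTCA) in 4.17%, 4.96% and 3.02%, and CArG boxes in 1.98%, 2.30% and 1.26%. EGR sites (GCGTGGGCG) were in 1.19%, 1.42% and 1.02%, SREBP sites in 0.397%, 0% and 0.0427%, and ERSE in 0%, 0% and 0.128%. CRE matches were in 5 BDNF and 23 KCl windows. CArG boxes were no more frequent on the BDNF side, although Egr2 and Dusp5 carry them.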

How the data were processed

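RNA-seq libraries were single-end reads from oligo-dT captured RNA, and no strand marking was stated. The authors aligned them with TopHat2 to mm10, counted genes of GENCODE M16 (which program counted them was not stated) and deposited a signal per gene, the count divided by a DESeq2 size factor. Dividing by the value of 1 read gave whole numbers for 100% of values within a tolerance of 0.01, and edgeR on these reads called 7272 genes at 10 h. For ATAC-seq the authors aligned with Bowtie2, called peaks with MACS2 in each sample and deposited counts per peak, kept where found in at least 2 samples. Columns of the authors' own comparisons (fold changes, p-values) were not used.

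Genes with a mean of at least 10 over 18 RNA columns were fitted as log2(value + 1) with limma 3.58.1 (R 4.3.3, trend and robust), with 7 levels and all 6 controls as one. Two-sided p-values were adjusted by Benjamini-Hochberg and called below 0.1. Peaks were tested with edgeR 4.0.16 after LOESS offsets. Fold changes on this scale understate low genes. Alternatives were DESeq2 1.42.0, edgeR on recovered reads, TMM, other pseudocounts and filters, and leaving out single libraries. Ratios of few reads carry 95% intervals that cover counting error only. The study calls the 2 libraries of a group biological replicates. The p-values for RNA rest on the spread within the 7 levels, pooled over the 18 RNA columns and moderated across genes. They do not measure the spread of the libraries of 10 h alone. The genes named were the 12 with the largest difference in each direction (mean of at least 50 in the higher group, no overlap, no predicted genes), up to 4 called members per list and direction, and Egr, Fos and Jun factors, growth factors, calcium channel pores, RGK GTPases, Bdnf, Ntrk2, Arc, Npas4 and Vgf whatever their result. The members and lists were chosen with earlier results of these data known, and both scripts were tested on simulated data. Gene names and positions are from GENCODE M21. Results for a few genes within the rule are not reported here.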

Additional observations from a re-analysis of the deposited data

Results flagged for a closer look

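The BDNF minus KCl difference itself changed with time, by a test of the change, in 6835 genes between 1 h and 10 h and in 1242 between 6 h and 10 h. From 1 h to 10 h the log2 difference changed towards KCl by -6.81 in Acan, -5.28 in Acvr1c, -4.53 in Gpr3, -3.72 in Rgs4, -3.67 in Rem2, -3.54 in Egr3, -3.22 in Inhba, -2.28 in Nab2 and -0.83 in Nr4a1. It changed towards BDNF by 4.77 in Gal, 3.08 in Fibcd1, 2.86 in Pde1a and 1.87 in Fst.

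For 35 named genes, the 6 controls were searched for a single library that stood apart by the gap to its nearest neighbour. The rule flagged 4 genes. Chance meets it in about 1 in 20 groups, so flags by chance were to be expected among 35 genes. The lowest control was 38.45 for Bdnf, 519.1 for Txnip and 289.6 for Slc7a8, and the highest was 288.3 for Dusp6.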

How the results depend on the processing

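Of 106 counts of calls recomputed under an alternative, 85 were within 1.5 times the count given, and no call of a named gene reversed, although values of genes that were not called, such as Egr3, Junb and Rrad, crossed 0. With an adjusted p below 0.01, the counts were 4161 genes for BDNF against KCl at 10 h (7287 below 0.1), 3769 for the change from 1 to 10 h, 117 for the change from 6 to 10 h, 3201 and 6116 for BDNF and KCl against controls, and 127 peaks. With controls fitted by time, 799 genes changed between 6 and 10 h and 4321 differed between BDNF and controls. A filter at a mean of 30 left 538 peaks. Leaving out single libraries gave 333 to 3153 genes for the change from 6 to 10 h, 3642 to 4584 for BDNF against controls without a BDNF library, and 159 to 616 peaks. The cause was not tested. Calls at 10 h over all genes also fell whenever a library of 10 h was left out. A lower count in a class is therefore not by itself particular to that class. DESeq2 lost the call of 9 of 350 named genes, and leaving out a single library lost 18 to 40. Same-letter libraries did not deviate together throughout: their correlations over 36 pairs of groups ran from -0.315 to 0.418, and that of BDNF 10 h with KCl 10 h was 0.0594, so the letters were not taken as a pairing. A fit with the letter as a replicate block gave 7495 calls at 10 h, and 2 of the 350 named genes lost their call. With 2 libraries a group, small differences of low genes could not be resolved.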

Other observations

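Some gene families were examined after their values were seen and are given as values only. Of 30 replication-dependent histone cluster genes, 15 were higher with KCl and 6 with BDNF at 10 h. The H2B genes had a median log2 difference of -2.13 (8 of 9 higher with KCl), and the H2A genes one of 0.56 (5 of 15 higher with BDNF, 2 with KCl). Over all 30, the median was -0.43 at 10 h and -0.01 at 1 h. RNA was captured with oligo-dT, so these values cover only histone RNA with a poly(A) tail and not total histone RNA. Of 4 genes of the interferon-inducible Ifi200 family, 3 were higher with BDNF, with a median of 3.17. Histone and Ifi200 genes have near-identical copies, so counts of single members are uncertain. Of 39 collagen chains, 7 were higher with each stimulus, with differences from -5.60 to 3.60.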
